A study of Mus musculus with 48 samples.

Results

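The 9 genes described here belong to lipid and sterol synthesis and were chosen by gene name: *Srebf1*, *Srebf2*, *Fasn*, *Scd1*, *Scd2*, *Acaca*, *Insig1*, *Hmgcs1*, and *Pltp*. All 9 were found among the 56748 genes of the FPKM table, and all 9 were among the 15637 genes that passed the filter on low counts and entered the tests. The data are 48 RNA-seq libraries of tibialis anterior muscle from male mice of 39 to 55 weeks, 1 library per mouse and 2 mice in each of 24 groups of genotype, tumor, and circadian time. KPC mice carried orthotopic pancreatic tumors that arose from injected murine KPC cancer cells, and control mice were injected with saline. FoxP1SkmKO mice are homozygous for a floxed *Foxp1* allele and carry Cre driven by the promoter of ACTA1, the skeletal muscle actin, so other cells of the muscle keep *Foxp1*. The control genotype is called WT here. The sample labels give it as C57BL/6J, and the series record gives it as floxed mice without Cre, so it cannot be stated which alleles these mice carried. All mice were kept in constant darkness after a 12 h light/dark cycle and were sampled every 4 h from CT18 to CT38. CT18, CT22, and CT38 fall in the subjective night, when mice are active, and CT26, CT30, and CT34 in the subjective day. WT control, WT KPC, FoxP1SkmKO control, and FoxP1SkmKO KPC mice are called the 4 arms, each with 12 libraries.

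Sterol regulatory element-binding proteins (SREBPs) are membrane-bound transcription factors that are carried to the Golgi and cleaved when sterols are low, and the parts released drive genes of fatty acid and cholesterol synthesis. *Srebf1* encodes the form that mainly serves fatty acid synthesis and is itself a target of the sterol-sensing LXR receptors and of insulin, and *Srebf2* encodes the form that mainly serves cholesterol synthesis. *Insig1* encodes the endoplasmic reticulum protein that holds SREBPs back when sterols are plentiful and is itself induced by SREBPs. Of the enzymes, *Acaca* makes malonyl-CoA, *Fasn* builds palmitate from it, and *Scd1* and *Scd2* introduce the double bond that turns saturated into monounsaturated fatty acids. *Hmgcs1* makes HMG-CoA at the start of the sterol pathway, and *Pltp* encodes the secreted phospholipid transfer protein, also an LXR target. In skeletal muscle these genes are expressed both in fibers and in the fat, connective tissue, vessel, and immune cells between them.

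The promoters of 4 members are shown as examples of motifs through which SREBPs, their partner NF-Y, and clock factors are known to bind: *Srebf2* and *Fasn* for CCAAT, *Insig1* for CACGTG, and *Hmgcs1* for TCACNCCAC. Windows of *Pltp* and *Srebf1*, not printed, held CCAAT as well. Promoter sequences came from the RefSeq table of build GRCm38.p6, which held windows for 7 of the 9 members and none for *Scd1* and *Scd2*. Each printed run was found exactly once in GRCm39, the build that the deposited tables use as mm39, and ends before the deposited start of the gene. Capitals mark CCAAT (the NF-Y motif), CACGTG (the E-box bound by clock activators and also by SREBPs), and TCACNCCAC (the core of a sterol regulatory element), each searched on both strands, so that CCAAT on the minus strand reads ATTGG. In *Fasn* the last CCAAT and ATTGG overlap and are printed as 1 stretch. The runs lie at chr15:82031220-82031381, plus strand for *Srebf2*, chr5:28276160-28276360, plus strand for *Insig1*, chr11:120715374-120715623, minus strand for *Fasn*, and chr13:120151637-120151886, plus strand for *Hmgcs1*.
Srebf2: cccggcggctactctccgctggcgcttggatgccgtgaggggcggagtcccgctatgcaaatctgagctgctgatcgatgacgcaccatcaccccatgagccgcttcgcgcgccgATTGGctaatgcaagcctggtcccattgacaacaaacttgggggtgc
Insig1: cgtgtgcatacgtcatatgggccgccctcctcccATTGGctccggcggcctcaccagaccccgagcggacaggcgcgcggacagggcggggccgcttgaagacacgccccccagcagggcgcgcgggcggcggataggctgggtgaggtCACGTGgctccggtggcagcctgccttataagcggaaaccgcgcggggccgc
Fasn: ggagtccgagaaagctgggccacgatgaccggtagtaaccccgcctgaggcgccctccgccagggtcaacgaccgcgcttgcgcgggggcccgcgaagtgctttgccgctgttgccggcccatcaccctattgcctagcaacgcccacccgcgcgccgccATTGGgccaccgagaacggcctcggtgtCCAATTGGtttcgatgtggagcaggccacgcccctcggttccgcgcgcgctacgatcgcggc
Hmgcs1: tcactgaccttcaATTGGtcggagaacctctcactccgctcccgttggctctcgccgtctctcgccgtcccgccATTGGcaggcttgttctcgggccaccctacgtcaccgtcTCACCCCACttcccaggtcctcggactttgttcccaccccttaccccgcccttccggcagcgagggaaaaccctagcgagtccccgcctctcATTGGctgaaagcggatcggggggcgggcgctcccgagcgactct

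Of the 9 windows of 250 bases (3 of them of *Srebf1*), 7 held CCAAT, against 33.8% of the 32851 windows of the table. CACGTG was found in 1, that of *Insig1*, at 101 bases before the RefSeq start, against 6.02% of all windows. TCACNCCAC was found in 1, that of *Hmgcs1*, at 137 bases before the start, against 1.05% of all windows. GTAAACA, a forkhead motif of the kind that FOXP1 is known to bind, was in none of the 9 windows and in 3.17% of all windows. These are matches of letters in short windows and say nothing about binding. Some of the windows counted lie wholly inside the gene as deposited. They are that of *Acaca* (chr11:84086014-84086263) and those of *Srebf1* at chr11:60111454-60111703 and chr11:60101298-60101547.

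Levels are given as FPKM, which are read counts scaled by gene length and library size, so that genes can be compared. Over the 48 libraries *Srebf1* (ENSMUSG00000020538; chr11:60089915-60113407, minus strand) was the highest of the 9, with 12.8 ± 3.04 FPKM (SD, n = 48) and a range of 8.12 to 21.0 FPKM. *Scd1* (ENSMUSG00000037071; chr19:44382894-44396318, minus strand) followed with 8.93 ± 5.15 FPKM and the widest range, 1.43 to 26.2 FPKM. *Hmgcs1* (ENSMUSG00000093930; chr13:120151915-120169796, plus strand) had 5.59 ± 0.480 FPKM, and *Scd2* (ENSMUSG00000025203; chr19:44282113-44295303, plus strand) had 4.69 ± 1.20 FPKM. *Pltp* (ENSMUSG00000017754; chr2:164681438-164699631, minus strand) had 4.27 ± 1.09 FPKM, *Insig1* (ENSMUSG00000045294; chr5:28276361-28283660, plus strand) had 4.16 ± 0.636 FPKM, and *Srebf2* (ENSMUSG00000022463; chr15:82031382-82089580, plus strand) had 3.09 ± 0.536 FPKM. *Fasn* (ENSMUSG00000025153; chr11:120696672-120715373, minus strand) was lower at 1.94 ± 0.632 FPKM, and *Acaca* (ENSMUSG00000020532; chr11:84020498-84292477, plus strand) was the lowest at 0.916 ± 0.114 FPKM, with a range of 0.583 to 1.13 FPKM. In this order, neighbors from *Srebf1* down to *Insig1* differed by less than the larger of their SDs. *Insig1*, *Srebf2*, *Fasn*, and *Acaca* each differed from the next by more than the SD of either. The enzyme that commits carbon to fatty acid synthesis and the synthase were the lowest of the 9 per unit length, and the regulator *Srebf1* the highest.

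The 9 genes differed in how well the mice of a group agreed. The fold between the 2 mice of a group had a median of 1.81 and a maximum of 12.1 for *Scd1* over the 24 groups, and a median of 1.32 and a maximum of 2.68 for *Fasn*. For the other 7 the median lay between 1.08 (*Srebf2*) and 1.18 (*Scd2*). A difference in *Scd1* between groups of 2 mice can therefore be read only where it is large. *Scd1* and *Scd2* are similar in sequence, and how reads were split between them in the counting was not tested. *Srebf1* overlaps *Rai1* and *Pltp* overlaps *Ctsa* on the opposite strand, and the sources used here do not say whether the counting used strand.

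The libraries held 14480446 to 20787135 counts on genes (median 16601271). *Foxp1* did not separate the genotypes, with 0.630 ± 0.140 FPKM in WT control and 0.578 ± 0.0682 FPKM in FoxP1SkmKO control mice with a log2 difference of -0.11 (SE 0.07, adjusted p = 0.459). In KPC mice the difference was -0.20 (SE 0.07, adjusted p = 0.246). The genotypes are named as labelled. Fast fiber markers were high in every library (summed level 43119 to 61246 FPKM), and pancreas markers were near 0. Liver markers stood at 362 CPM (counts scaled to library size) in FoxP1SkmKO KPC CT18 replicate 2 and at 109 CPM in FoxP1SkmKO control CT22 replicate 1, against a median of 0.416 CPM over the 48 libraries. Without these 2 libraries the counts of members called were the same for the averaged tumor effect in FoxP1SkmKO mice and for the rhythm. The other averaged comparisons were not refitted without them. The 12 adipocyte markers summed to 558 to 1904 FPKM, of which *Car3*, which fast fibers may also express, made up 85.3% to 95.8%. In bulk muscle, fewer cells of a type and less RNA per cell cannot be told apart.

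Time of day moved most of these genes. Averaged over the 4 arms, 6 of the 9 genes followed a 24 h rhythm (edgeR's quasi-likelihood test, Benjamini-Hochberg adjusted p under 0.05 over all genes tested), whereas 39.8% of the 15637 genes tested did. The 6 were *Srebf1*, *Srebf2*, *Insig1*, *Fasn*, *Scd2*, and *Pltp*. Their fitted peaks lay between CT20.0 and CT25.6, from late subjective night to early subjective day. All 6 thus fell in the 12 h from CT16 to CT28, in which 48.9% of the 6228 genes called peaked. The share of called genes within the narrower range was not computed. The fitted peak-to-trough ranges of the 6 were 1.35-fold to 1.69-fold, and each amplitude was above the median of the called genes (0.15 on the log2 scale). The 6 times span less than 1 full cycle, so a rhythm here is a fit to 1 pass of the day.

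**Figure D1:**
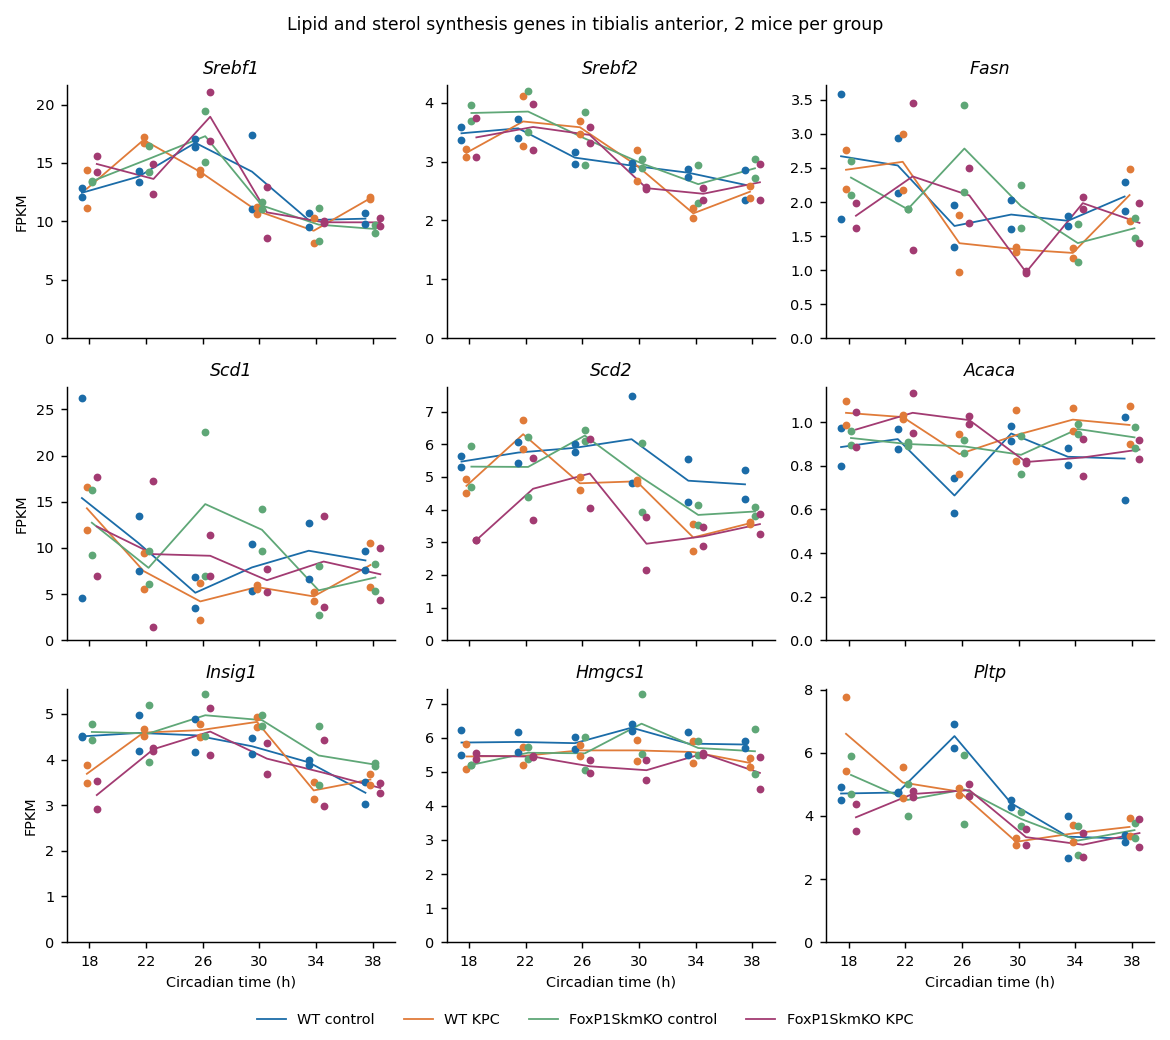
FPKM of each gene (vertical axis, from 0) against circadian time in hours. Points are single mice, shifted sideways by arm so that they do not overlap, lines join the means of the 2 mice of a group, and colors mark the 4 arms. *Srebf1* and *Srebf2* fall from CT26 to CT34 in all 4 arms, the time means of *Hmgcs1* stay between 5.41 and 5.85 FPKM, and the mice of a group lie far apart for *Scd1*.

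Among the regulators, *Srebf1* had the largest fitted amplitude of the 9, 0.38 on the log2 scale, with a peak at CT23.6 (adjusted p = 8.49e-10). Its level in the 8 libraries of a time was 14.1 to 21.0 FPKM (median 16.6) at CT26 and 8.12 to 11.1 FPKM (median 9.93) at CT34. Every mouse at CT26 was above every mouse at CT34. *Srebf2* had an amplitude of 0.29 and a peak at CT22.3 (adjusted p = 7.12e-09), with 3.20 to 4.19 FPKM (median 3.62) at CT22 and 2.04 to 2.93 FPKM (median 2.45) at CT34. The 8 mice at CT22 all lay above the 8 at CT34. *Insig1*, which restrains both factors, peaked later, at CT25.6, with an amplitude of 0.21 (adjusted p = 1.88e-05). It had 4.10 to 5.43 FPKM (median 4.65) at CT26 and 3.03 to 3.92 FPKM (median 3.50) at CT38, and those 8 and 8 mice did not overlap. The intervals of these peak times were not computed, so the later peak of *Insig1* is a description. For each of these regulators the times compared were those of its own highest and lowest mean. The share of all genes whose mice separate in this way was not computed, so the separation is a description as well.

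Of the fatty acid genes, *Fasn* peaked first, at CT20.0, with an amplitude of 0.35 (adjusted p = 4.92e-04). Its mice overlapped between times, with 1.29 to 3.46 FPKM (median 2.16) at CT22 and 0.956 to 2.26 FPKM (median 1.48) at CT30. *Scd2* peaked at CT23.9 with an amplitude of 0.30 (adjusted p = 2.32e-05), and had 4.05 to 6.44 FPKM (median 5.89) at CT26 and 2.73 to 5.53 FPKM (median 3.55) at CT34, which overlap. *Scd1* had an amplitude like that of *Fasn*, 0.35, but did not pass the test (adjusted p = 0.156). Its level was 4.59 to 26.2 FPKM (median 14.1) at CT18 and 2.75 to 13.4 FPKM (median 5.97) at CT34, so that mice of a single time spanned more than the fitted rhythm. *Acaca*, the committing enzyme, did not pass either, with an amplitude of 0.06 (adjusted p = 0.285) and time means from 0.854 FPKM at CT26 to 0.973 FPKM at CT22.

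The sterol enzyme *Hmgcs1* had the lowest amplitude of the 9, 0.04 (adjusted p = 0.346), and its time means stayed between 5.41 FPKM at CT38 and 5.85 FPKM at CT30. The lipid transfer gene *Pltp* had an amplitude of 0.35 and a peak at CT22.4 (adjusted p = 1.77e-07), close to that of *Srebf2*. It had 4.01 to 5.54 FPKM (median 4.74) at CT22 and 2.68 to 4.01 FPKM (median 3.32) at CT34, and the lowest mouse at CT22 was level with the highest at CT34. Of the pair of sterol genes, the regulator *Srebf2* thus passed the test and the enzyme *Hmgcs1* did not.

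Markers of some other cell types moved with the same times. The summed level of 7 macrophage markers had a median of 19.4 FPKM at CT18 and 8.39 FPKM at CT34, and all 7 were called rhythmic. The 4 fibroblast markers, also all called, had medians of 53.9 and 21.9 FPKM at those times. Of the 12 adipocyte markers 2 were called, and of the 7 Schwann cell markers 0, against 39.8% of all genes tested. With the macrophage marker level of each library as a term, added after seeing the data, 5 of the 9 genes stayed called and *Fasn* did not (adjusted p = 0.413). With the fibroblast level as a term the count was 6, and with the adipocyte level without *Car3* it was 5, without *Insig1* (adjusted p = 0.217). Over all 9 alternatives to the test, adjusted p reached at most 0.413 for *Fasn* and 0.217 for *Insig1*, and *Srebf1*, *Srebf2*, *Scd2*, and *Pltp* passed with each marker term.

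**Figure D2:**
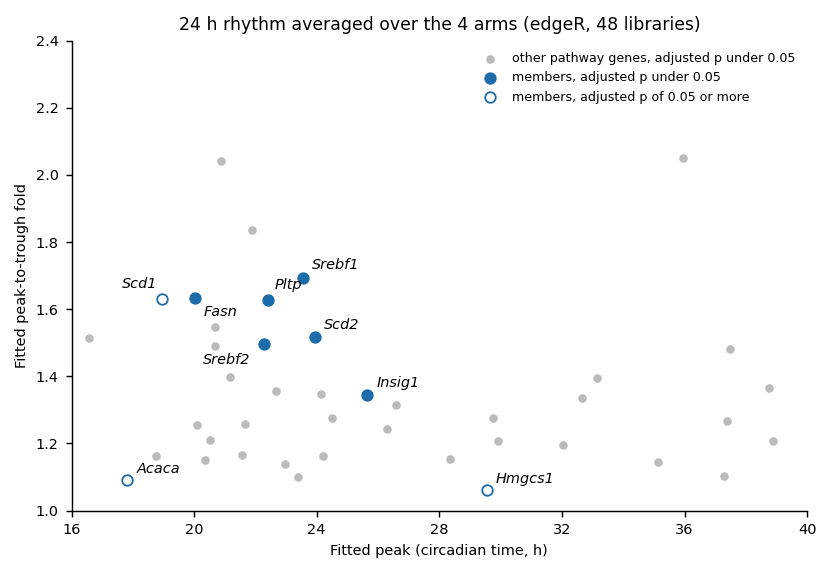
Fitted peak time (horizontal axis, circadian time in hours) against the fitted peak-to-trough fold (vertical axis) in the edgeR fit averaged over the 4 arms, for the 9 members and for the other genes of the pathways that passed the test. The 6 members called lie between CT20.0 and CT25.6 at 1.35-fold to 1.69-fold, and the other genes are spread over the day.

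Within single arms, a 24 h sinusoid was fitted to FPKM in the 12 libraries of each arm. The threshold was an unadjusted p under 0.01, taken from the study's methods. WT control mice had 2 of the 9 genes called, *Srebf1* and *Pltp* (4.92% of all genes with varying FPKM were called), and WT KPC mice had 5, *Srebf1*, *Srebf2*, *Fasn*, *Scd2*, and *Insig1* (4.22%). FoxP1SkmKO control mice had *Srebf1* and *Srebf2* (4.07%), and FoxP1SkmKO KPC mice had *Srebf2* and *Pltp* (2.63%). These shares include genes too low in counts to enter the edgeR tests, which all 9 members entered. The count of 5 against 2 is not a test of a difference. *Srebf2*, which was called in 3 arms and lay close to the threshold in the fourth, had an amplitude of 0.420 FPKM with a peak at CT21.8 (p = 0.0107) in WT control mice, 0.780 FPKM with a peak at CT23.3 (p = 1.88e-04) in WT KPC mice, 0.645 FPKM with a peak at CT21.4 (p = 0.00462) in FoxP1SkmKO control mice, and 0.656 FPKM with a peak at CT21.9 (p = 0.00205) in FoxP1SkmKO KPC mice (F test, n = 12 in each). The fitted amplitude of *Pltp* was 1.36 FPKM among WT control mice (F test p = 0.00338, n = 12) and 1.46 FPKM among WT KPC mice (F test p = 0.0120, n = 12), so it missed the threshold with tumors although its amplitude was not the lower one. With Benjamini-Hochberg adjustment over all genes, 1 of the 11 calls was left, *Srebf2* in WT KPC mice (adjusted p = 0.0443). With adjustment over genes at or above a mean FPKM of 1, 5 were left. Leaving out 1 mouse of the arm at a time kept 6 of the 11 calls in each case and ended the other 5 in some. The call of *Srebf1* in WT control mice was lost in 8 of 12 cases (F test p up to 0.0226, n = 12 before a mouse was left out), those without either mouse of CT26, CT34, or CT38, replicate 2 of CT18, or replicate 1 of CT22. The call of *Pltp* was lost in 2 of 12 cases in WT control mice (CT26 replicate 1 and CT38 replicate 2) and in 2 of 12 in FoxP1SkmKO KPC mice (CT22 replicate 1 and CT34 replicate 2). *Fasn* in WT KPC mice lost its call in 4 of 12 cases (replicate 2 of CT18 and CT30, both mice of CT34), and *Srebf2* in FoxP1SkmKO control mice in 4 of 12 (both mice of CT18, replicate 2 of CT22 and CT34). *Pltp* in WT KPC mice gained a call in 2 of 12 cases (CT18 replicate 2 and CT22 replicate 1), as did *Srebf2* in WT control mice (CT26 replicate 1 and CT38 replicate 2). *Scd2* in FoxP1SkmKO control mice (CT22 replicate 1) and *Srebf1* (CT22 replicate 1) and *Acaca* (CT34 replicate 2) in FoxP1SkmKO KPC mice gained one in 1 of 12 cases each.

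The rhythm was then compared between KPC and control mice by an F test of the sinusoid terms with 18 residual degrees of freedom. In WT mice 3 of the 9 genes had an unadjusted p under 0.05, *Srebf1*, *Srebf2*, and *Pltp* (5.07% of all genes), and in FoxP1SkmKO mice 1 had, *Acaca* (5.09%). None passed after adjustment over all genes, with adjusted p = 0.752 for the 3 in WT mice and 0.757 for *Acaca*. *Srebf1* peaked at CT25.3 in WT control and at CT22.1 in WT KPC mice with amplitudes of 3.13 and 3.28 FPKM (unadjusted p = 0.0332). At CT30 it stood at 11.1 and 17.4 FPKM in the 2 WT control mice and at 10.6 and 11.2 FPKM in the 2 WT KPC mice. One control mouse of that time stood above the others, and the second lay between the KPC mice.

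*Pltp* peaked at CT24.6 in WT control and at CT20.2 in WT KPC mice (unadjusted p = 0.0154). At CT18 it had 4.52 and 4.90 FPKM in WT control and 5.43 and 7.78 FPKM in WT KPC mice. At CT26 the order was turned, with 6.16 and 6.90 FPKM in control and 4.67 and 4.87 FPKM in KPC mice. The tumor group was thus the higher of the pair at CT18 and the lower at CT26. *Srebf2* had the larger amplitude in WT KPC mice (unadjusted p = 0.0394), and at CT34 it had 2.74 and 2.88 FPKM in control and 2.21 and 2.04 FPKM in KPC mice. *Acaca* in FoxP1SkmKO mice had an amplitude of 0.0382 FPKM with a peak at CT38.2 (p = 0.347) in control and 0.116 FPKM with a peak at CT21.9 (p = 0.0184) in KPC mice (n = 12 in each), and the test of the difference gave an unadjusted p of 0.0129. Neither arm passed the threshold for a rhythm of *Acaca*. Leaving out single mice ended the call of *Srebf1* in 4 of 24 cases and that of *Srebf2* in 11 of 24, with p up to 0.0941 and 0.0957. For *Srebf1* these were WT control CT30 replicate 2, WT KPC CT18 replicate 2, and both WT KPC mice of CT30. For *Srebf2* they were both WT control mice of CT26 and of CT34, both WT KPC mice of CT34, replicate 1 of CT38 in both arms, replicate 2 of CT22 in both arms, and WT KPC CT26 replicate 2.

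**Figure D3:**
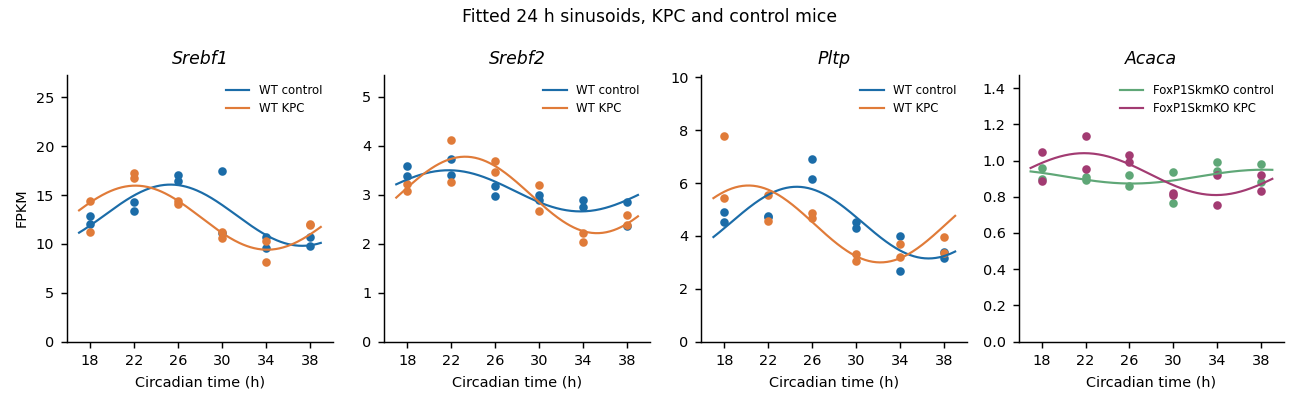
FPKM (vertical axis) against circadian time in hours with the fitted 24 h sinusoids for the 4 genes whose rhythm had an unadjusted p under 0.05 for a difference between KPC and control mice. Points are single mice and lines the fits. *Pltp* peaks at CT24.6 in WT control mice and at CT20.2 in WT KPC mice.

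The effect of tumors was tested as the KPC minus control difference averaged over the 6 times. In WT mice 0 of the 9 genes passed (1.78% of all genes did), and 3 had an unadjusted p under 0.05, *Scd2*, *Acaca*, and *Hmgcs1* (15.2% of all genes did). In FoxP1SkmKO mice 1 of the 9 passed, *Scd2* (0.422% of all genes did), and *Insig1* and *Hmgcs1* had an unadjusted p under 0.05 (12.4% of all genes did). The median log2 fold change of the 9 was -0.06 in WT and -0.11 in FoxP1SkmKO mice, against 0.00 over all genes tested in both. Without a filter on low counts, edgeR called 3 of the 9 in WT mice, *Fasn*, *Scd1*, and *Scd2*, and added *Insig1* in FoxP1SkmKO mice; in that fit each gene's own spread was replaced by the trend shared by all genes.

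*Scd2* was the gene of the 9 with the largest change in FoxP1SkmKO mice. Over 12 libraries each, it ranged from 3.54 to 6.44 FPKM (median 4.54) in control and from 2.14 to 6.15 FPKM (median 3.58) in KPC mice. The groups overlap in range. By time, the 2 control mice had 4.69 and 5.94 FPKM at CT18, 4.39 and 6.22 FPKM at CT22, 6.44 and 6.09 FPKM at CT26, 6.04 and 3.93 FPKM at CT30, 3.54 and 4.13 FPKM at CT34, and 3.80 and 4.08 FPKM at CT38. The KPC mice had 3.07 and 3.06 FPKM at CT18, 5.59 and 3.69 FPKM at CT22, 6.15 and 4.05 FPKM at CT26, 3.76 and 2.14 FPKM at CT30, 3.48 and 2.88 FPKM at CT34, and 3.86 and 3.25 FPKM at CT38. The mean was lower with tumors at 6 of 6 times, and both KPC mice were below both control mice at CT18, CT30, and CT34. The averaged log2 fold change was -0.41 (SE 0.09, adjusted p = 0.0378), a fall to 0.752 of the control level, with a 95% interval from -0.60 to -0.23. In WT mice it was -0.29 (SE 0.09, adjusted p = 0.0988), lower at 5 of 6 times, with 5.49 ± 0.864 FPKM (SD, n = 12) in control and 4.57 ± 1.10 FPKM in KPC mice. The 2 effects were not shown to differ (difference -0.12, SE 0.13, adjusted p = 0.921).

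Of the 4 fibroblast markers, 2 passed as lower with tumors in WT mice (1.78% of all genes passed in either direction). In FoxP1SkmKO mice 0 of these markers passed (0.422% of all genes did), and the median log2 fold changes were -0.60 and -0.61. Their summed level had a median of 45.5 FPKM in WT control, 28.0 FPKM in WT KPC, 40.5 FPKM in FoxP1SkmKO control, and 23.3 FPKM in FoxP1SkmKO KPC mice, with a range of 14.5 to 75.4 FPKM over the 48 libraries and none of the 4 markers at 0. With that level as a term, the log2 fold change of *Scd2* in FoxP1SkmKO mice was -0.33 (adjusted p = 0.544), and with the adipocyte level without *Car3* it was -0.35 (adjusted p = 0.199), both terms added after seeing the data. With the macrophage level it was -0.41 (adjusted p = 0.0271). The 7 Schwann cell markers had median log2 fold changes of -0.32 in WT and -0.28 in FoxP1SkmKO mice, and 0 passed in either. The 7 macrophage markers had 0.19 and 0.15, also with 0 passed. A Schwann cell level was not used as a term. Leaving out 1 library at a time kept *Scd2* between -0.49 and -0.35, and ended the call for 13 of the 24 FoxP1SkmKO libraries, with adjusted p up to 0.124. These were both KPC mice of CT18, replicate 2 of KPC at CT22, CT26, CT30, and CT34, replicate 1 of KPC at CT38, replicate 2 of control at CT18, CT22, CT26, CT34, and CT38, and replicate 1 of control at CT30. Over the 9 other alternatives the value lay between -0.45 and -0.33 and the adjusted p between 7.93e-11 and 0.544.

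Among the other members in FoxP1SkmKO mice, *Insig1* had a log2 fold change of -0.22 (SE 0.07, adjusted p = 0.104) and was lower at 6 of 6 times, with 4.50 ± 0.596 FPKM in control and 3.86 ± 0.662 FPKM in KPC mice (SD, n = 12). In WT mice its value was -0.04 (SE 0.07, adjusted p = 0.859), and comparing the genotypes gave an unadjusted p of 0.0488 (adjusted p = 0.763). *Hmgcs1* had -0.11 (SE 0.05, adjusted p = 0.298) in WT and -0.10 (SE 0.05, adjusted p = 0.385) in FoxP1SkmKO mice, lower at 6 of 6 and 5 of 6 times. *Acaca* had 0.21 (SE 0.07, adjusted p = 0.105) in WT mice, where it was higher at 5 of 6 times, and 0.02 (SE 0.07, adjusted p = 0.949) in FoxP1SkmKO mice. It was the one member with a positive value in WT mice. *Scd1* had a larger value in WT mice, -0.41 (SE 0.31, adjusted p = 0.569), with 9.55 ± 6.09 FPKM in control and 7.44 ± 3.99 FPKM in KPC mice, and it was within the spread between mice although the mean was lower at 6 of 6 times. *Srebf1*, *Srebf2*, *Fasn*, and *Pltp* had log2 fold changes between -0.21 and -0.03 in WT mice and between -0.15 and 0.03 in FoxP1SkmKO mice, none with an unadjusted p under 0.05. The 95% interval of *Srebf1* ran from -0.17 to 0.10 in WT mice and from -0.11 to 0.16 in FoxP1SkmKO mice.

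**Figure D4:**
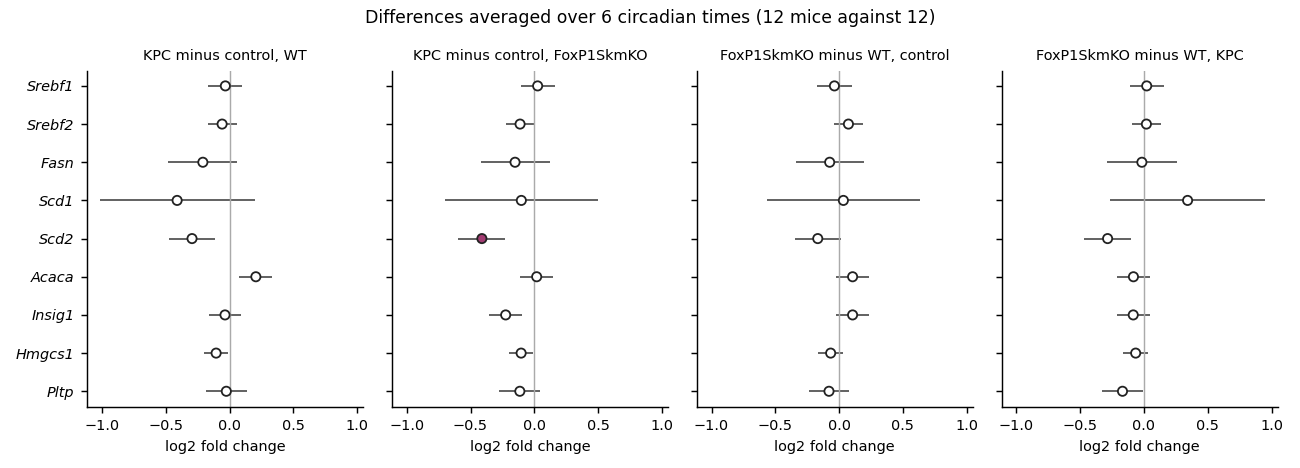
Log2 fold change of each gene (horizontal axis) with its 95% interval, averaged over the 6 times, for KPC minus control mice in each genotype and for FoxP1SkmKO minus WT mice in each condition. The intervals use a normal quantile and an SE derived from edgeR's F statistic, which makes them somewhat narrow. Filled points have an adjusted p under 0.05, which *Scd2* reaches in FoxP1SkmKO mice with an interval from -0.60 to -0.23, and the intervals of *Scd1* are the widest.

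The difference of the averaged tumor effect between the genotypes gave 0 of 9 members and 0 of 15637 genes after adjustment (0.0%). At an unadjusted p under 0.05 there were 1020 genes (6.52%), *Insig1* among them. DESeq2 on all 48 libraries called 0 of the 9 as well, and without a filter on low counts edgeR called 1, *Scd1*.

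At single times, with 2 mice against 2, 0 of the 108 tests of a member passed. The share of all genes called was 7.18% at CT26 in WT mice and at most 0.0384% in the other 11. Those were 0.0192% at CT18, 0.0384% at CT26, and 0.0064% at CT38 in FoxP1SkmKO mice, 0.0064% at CT30 and 0.0256% at CT38 in WT mice, and 0.0% in the remaining 6. The 13 tests of a member with an unadjusted p under 0.05 were spread over 6 of the 12 comparisons, and over all genes 8.49% of the tests at single times were under it. *Pltp* accounted for 4 of them, with a log2 fold change of 0.48 at CT18, -0.46 at CT26, and -0.47 at CT30 in WT mice and -0.40 at CT18 in FoxP1SkmKO mice. *Scd2* accounted for 3, -0.62 at CT34 in WT mice and -0.79 at CT18 and -0.75 at CT30 in FoxP1SkmKO mice. At CT30 in FoxP1SkmKO mice all 9 members had values below 0, *Fasn* the lowest at -0.99, with 2.26 and 1.62 FPKM in control and 0.956 and 0.985 FPKM in KPC mice. The 9 share those 4 libraries. DESeq2 on the 4 libraries of each comparison called 3 of the 108, *Scd2* at CT18 and *Fasn* and *Scd1* at CT30, all lower with tumors in FoxP1SkmKO mice, and edgeR without a filter on low counts called 10.

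The genotypes were compared as FoxP1SkmKO minus WT. In control mice 0 of the 9 genes passed (3.45% of all genes did), and 0 had an unadjusted p under 0.05 (17.2% of all genes did). DESeq2 on all 48 libraries called 0 of the 9 in either comparison of genotypes and 0 for tumors in WT mice. In KPC mice 0 of the 9 passed (0.352% of all genes did), and *Scd2* and *Pltp* had an unadjusted p under 0.05 (10.8% of all genes did). *Scd2* had a log2 difference of -0.28 (SE 0.09, adjusted p = 0.210) in KPC mice and -0.17 (SE 0.09, adjusted p = 0.353) in control mice, and the arm means fell in the order WT control, FoxP1SkmKO control, WT KPC, and FoxP1SkmKO KPC, at 5.49, 4.94, 4.57, and 3.75 FPKM. Neighbors in that order lie within 1 SD of each other. *Pltp* had -0.17 (SE 0.08, adjusted p = 0.459) in KPC mice. *Srebf1* had -0.04 (SE 0.07, adjusted p = 0.848) in control and 0.02 (SE 0.07, adjusted p = 0.950) in KPC mice, and *Srebf2* had 0.07 (SE 0.06, adjusted p = 0.570) and 0.02 (SE 0.06, adjusted p = 0.946).

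The other genes of these pathways were described from a list of 62 by role, of which 61 were in the table and 56 passed the filter. None of the 56 passed for the tumor effect in either genotype, for its difference between genotypes, or for genotype in KPC mice (adjusted p under 0.05, edgeR), and 2 passed for genotype in control mice. At an unadjusted p under 0.05 there were 7 of the 56 for tumors in WT mice (15.2% of all genes), 8 in FoxP1SkmKO mice (12.4%), and 2 for the difference (6.52%). For genotype there were 4 in control mice (17.2%) and 6 in KPC mice (10.8%), so that the counts are near or below the background. The 2 that passed in control mice (3.45% of all genes did) were *Hsd17b7*, a sterol reductase of the cholesterol pathway, with a log2 difference of -0.36 (adjusted p = 0.0428), and *Tecr*, a reductase of fatty acid elongation, with -0.11 (adjusted p = 0.0477). For the 24 h rhythm 33 of the 56 passed, against 39.8% of all genes tested. By role they were 4 of 9 regulators, 9 of 19 genes of the sterol pathway, 2 of 3 of sterol uptake, 9 of 13 of fatty acid synthesis, 3 of 5 of triglyceride synthesis, 4 of 4 LXR targets, and 2 of 3 of lipid transfer.

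The peaks of these 33 genes lay between CT16.6 and CT38.9. The 9 genes of fatty acid synthesis had a median peak at CT21.9 with a range from CT18.7 to CT37.3, and the 4 regulators had one at CT23.8 with a range from CT21.6 to CT29.9. The 3 genes of triglyceride synthesis peaked at CT20.4 (*Lpin1*), CT33.1 (*Gpam*), and CT37.5 (*Dgat2*), and the 9 of the sterol pathway had a median of CT28.4 with a range from CT20.5 to CT38.9. The 5 with the lowest adjusted p were *Gpam*, the first acyltransferase of glycerolipid synthesis, with a peak at CT33.1 and a 1.40-fold range, *Acat2*, which condenses acetyl-CoA ahead of *Hmgcs1*, with a peak at CT35.9 and a 2.05-fold range, *Dgat2*, which makes triglyceride, with a peak at CT37.5 and a 1.48-fold range, *Sc5d*, a late sterol desaturase, with a peak at CT32.0 and a 1.20-fold range, and *Tecr*, with a peak at CT23.0 and a 1.14-fold range. *Hmgcs1*, which acts after *Acat2*, did not pass the same test. Chosen after their values were seen, *Elovl3*, a fatty acid elongase, had a peak at CT20.9 and a 2.04-fold range, and *Fads2*, a desaturase, had a peak at CT21.9 and a 1.83-fold range.

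The genes whose log2 CPM followed 8 of the members most closely over the 48 libraries are given as a description, since the libraries share time of day and cell content. For *Srebf1* they were *Tnfaip2* (r = 0.85, rho = 0.88), *Fam20c* (r = 0.80, rho = 0.80), and *Zhx2* (r = 0.79, rho = 0.81). For *Srebf2* they were *Creb3l1* (r = 0.84, rho = 0.83), *Auts2* (r = 0.83, rho = 0.83), and *Dyrk2* (r = 0.83, rho = 0.85). The list for *Pltp* held *Mmp14* (r = 0.82, rho = 0.84), *Csf1r* (r = 0.81, rho = 0.81), and *Creb3l1* (r = 0.79, rho = 0.82), of which *Csf1r* is a macrophage marker. *Scd1* was followed most closely by *Cdo1* (r = 0.80, rho = 0.81), *Plin1* (r = 0.76, rho = 0.66), and *Pck1* (r = 0.75, rho = 0.74), of which *Plin1*, which coats the lipid droplet, is one of the adipocyte markers. The list for *Fasn* began with *Scd1* itself and was *Scd1* (r = 0.75, rho = 0.74), *Lrp1* (r = 0.68, rho = 0.63), and *Dpt* (r = 0.67, rho = 0.67). *Insig1* was nearest to *Col4a2* (r = 0.71, rho = 0.71), *Plxnd1* (r = 0.71, rho = 0.71), and *Col4a1* (r = 0.70, rho = 0.69). The genes nearest to *Scd2* were *Trim35* (r = 0.75, rho = 0.77), *Hic1* (r = 0.74, rho = 0.74), and *Cxcl12* (r = 0.73, rho = 0.70). *Hmgcs1* had *Calu* (r = 0.69, rho = 0.62), *Csgalnact2* (r = 0.65, rho = 0.64), and *Msrb3* (r = 0.64, rho = 0.64).

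Among the 36 pairs of members, *Fasn* and *Scd1* were the most alike (r = 0.75, rho = 0.74, n = 48), followed by *Srebf2* and *Pltp* (r = 0.67, rho = 0.76). *Scd2* followed *Insig1* (r = 0.67, rho = 0.69). *Acaca* and *Hmgcs1* had the lowest value (r = -0.26, rho = -0.29). *Fasn* and *Acaca*, successive steps in fatty acid synthesis, had r = 0.30, rho = 0.26, and *Scd1* and *Scd2*, of the same enzyme family, had r = 0.26, rho = 0.27.

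**Figure D5:**
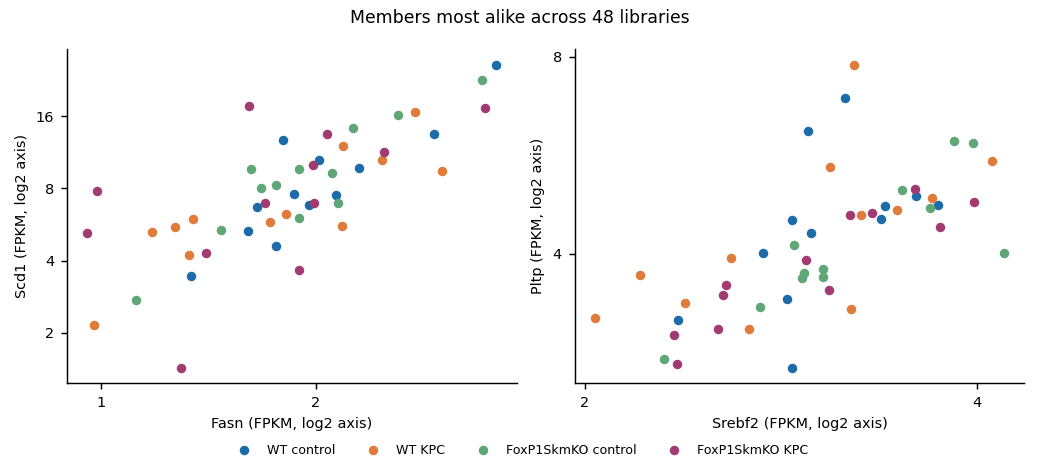
FPKM of *Scd1* against *Fasn* (left) and of *Pltp* against *Srebf2* (right) on log2 axes in the 48 libraries, with 1 point per mouse, colored by arm. Both pairs rise together (Pearson's r of log2 CPM = 0.75 and 0.67), with no separation of the arms.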

How the data were processed

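The series holds 48 RNA-seq libraries. Per the labels and the study's methods, the authors sequenced paired reads, aligned them to mm39 (STAR in the methods, HISAT2 2.0.5 in the submitters' processing notes), and deposited raw counts per gene from HTSeq, one column per mouse, in 12 tables of 4 libraries that list only genes with at least 2 reads. The authors also deposited FPKM, counts scaled by gene length and library size, for 56748 genes. The tables further hold counts divided by DESeq2 size factors and the authors' fold changes and p-values of KPC against control mice (submitters' notes: DESeq2 1.20.0), which were not used. The strand setting of the counting is not given in the sources used here.

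A gene absent from a table was taken as 0 in its 4 libraries. Counts were fitted with edgeR 4.0.16 (R 4.3.3; filterByExpr, TMM, quasi-likelihood test) with 1 coefficient for each of the 24 groups. Contrasts gave the averaged and single-time KPC effects, the genotype effects, and 24 h cosine and sine terms tested together, with Benjamini-Hochberg adjustment over 15637 genes. The submitted FPKM were fitted with 24 h sinusoids in Python 3.11.15 (numpy 2.4.6, scipy 1.17.1, pandas 2.3.3) with 9 residual degrees of freedom in an arm and 18 for a difference. The edgeR tests set effects against the spread between mice within groups. Counts of such mice differed by 5.15 to 17.4 times sampling noise (chi-square per degree of freedom). The sinusoid tests used the scatter of single libraries around the fitted curve instead. Alternatives were no filter, RLE scaling, DESeq2 1.42.0 on 48 or 4 libraries, edgeR on 4 libraries, a replicate block, marker levels as terms, log2(FPKM + 1) and log2(FPKM + 0.1), adjusted p for rhythms, and each library left out. Scripts were tested on simulated data. The members, gene lists, and marker lists were chosen with earlier results of these data known. Named genes were the 9 members, *Foxp1*, pathway genes that passed a test (at most 5 by adjusted p), and the 3 genes with the highest Pearson correlation to each member. Of the Schwann cell, erythroid, endothelial, and slow fiber markers, 0 of 7, 2 of 3, 3 of 4, and 1 of 3 were called rhythmic, and none of the 6 liver markers was. The genes nearest in pattern to *Acaca* are not reported here.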

Additional observations from a re-analysis of the deposited data

Results flagged for a closer look

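In WT mice the 24 h rhythm differed between KPC and control mice at an unadjusted p under 0.05 for *Srebf1* (p = 0.0332), *Srebf2* (p = 0.0394), and *Pltp* (p = 0.0154), from an F test fitted to each gene separately with n = 12 per group. In FoxP1SkmKO mice (n = 12 per group) it did for *Acaca* (p = 0.0129). None passed after adjustment over all genes, where 5.07% and 5.09% of genes had an unadjusted p under 0.05. Whether these differences themselves differed between the genotypes was not tested.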

How the results depend on the processing

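Under RLE scaling, DESeq2 on the 48 libraries, the adipocyte level as a term, and the replicate block, the number of members called was the same in all 5 averaged comparisons and for the rhythm (0 in WT, 1 in FoxP1SkmKO, 0 for the difference and for both genotype effects, and 6 for the rhythm). Over 276 pairs of groups the deviations of same-numbered mice had a median r of -0.004 (-0.32 to 0.24), with 12 pairs above 0.1. A batch shared by only some groups was not tested. With the replicate block the single-time tests gave 0 calls, the arm rhythms 11, and the differences in rhythm 4, as without it.

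Without a filter on low counts, 3 members were called for tumors in WT mice, 2 in FoxP1SkmKO mice, 1 for the difference, 2 for genotype in KPC mice, 10 at single times, and 7 for the rhythm, with *Scd1* added (adjusted p = 5.63e-46). In that fit of 28726 genes the spread of each gene was replaced by the shared trend, so that the quasi-dispersion of *Scd1* was 0.734 in place of 30.7. With the adipocyte level without *Car3* or the fibroblast level as a term, both added after seeing the data, 0 members were called for tumors in FoxP1SkmKO mice, and the cause was not tested. DESeq2 on 4 libraries called 3 members at single times. Benjamini-Hochberg adjustment left 1 arm rhythm over all genes and 5 over genes at or above a mean FPKM of 1, and 0 differences in rhythm in both cases, as adjustment over many genes raises each p. Leaving out each library gave 0 to 1 members for tumors in WT mice (1 without WT control CT30 replicate 1 or CT38 replicate 1), 0 to 2 in FoxP1SkmKO mice (2 without FoxP1SkmKO KPC CT34 replicate 1), 0 to 1 for genotype in KPC mice, and 0 to 1 at single times (1 in both without FoxP1SkmKO KPC CT30 replicate 1). Without FoxP1SkmKO KPC CT22 replicate 2 the rhythm had 7 members, *Scd1* added (adjusted p = 0.0456).

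Several uncalled log2 values changed sign. For tumors in WT mice, the fibroblast term gave 0.0211 for *Srebf2*, 0.0426 for *Fasn*, 0.35 for *Scd1*, 0.0295 for *Insig1*, and 0.0777 for *Pltp*, and in FoxP1SkmKO mice 0.0832 for *Fasn* and 0.52 for *Scd1*. *Acaca* in FoxP1SkmKO mice was -0.0632 with the adipocyte level without *Car3* and -0.00531 without the 2 libraries high in liver markers, where *Srebf1* was -0.00241. The difference of *Hmgcs1* was -2.17e-04 with DESeq2 and -0.00864 with the macrophage term. The genotype effect in control mice was 0.0496 for *Srebf1* and -0.15 for *Scd1* with the adipocyte term, -0.0382 for *Scd1* without *Car3* in it, and 0.00117 for *Fasn* with the fibroblast term, and in KPC mice *Fasn* was 0.0470 with the macrophage and 0.0418 with the fibroblast term. With single libraries left out, tumor effects spanned 0 for *Pltp* (-0.0708 to 0.0272) and *Srebf1* (-0.0835 to 0.0250) in WT mice and for *Acaca* (-0.00994 to 0.0403), *Scd1* (-0.56 to 0.0751), and *Srebf1* (-0.0297 to 0.0716) in FoxP1SkmKO mice. Their differences did for *Fasn* (-0.0940 to 0.15), *Hmgcs1* (-0.0321 to 0.0321), *Scd1* (-0.15 to 0.49), and *Srebf1* (-1.37e-04 to 0.11). So did the genotype effects of *Fasn* (-0.14 to 0.0298), *Scd1* (-0.15 to 0.33), and *Srebf1* (-0.0845 to 0.0243) in control mice and of *Fasn* (-0.16 to 0.0729), *Scd1* (-0.11 to 0.50), *Srebf1* (-0.0306 to 0.0697), and *Srebf2* (-0.0106 to 0.0463) in KPC mice.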
